A study of Mus musculus with 15 samples.

Results

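Expression of proopiomelanocortin (Pomc), of the enzymes that cut its product and of the factors that mark corticotrophs was followed in 2 mouse cell lines given the glucocorticoid dexamethasone. The set was a written list of 10 genes, namely Pomc, Tbx19, Neurod1, Pitx1, Crhr1, Avpr1b, Nr4a1, Pcsk1, Pcsk2 and Cpe. A member was measured where exon array probesets mapped to it and to no other gene, with at least 3 such probesets. By this rule 9 of the 10 listed genes had a value, out of 15025 genes in all, and Avpr1b was not analysed here. The rule that picks its members uses roles and no measured value, though the list was drawn up with earlier results of these data known. All 9 passed the filter on dim signal, as did 9919 genes in all.

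AtT-20 is a corticotroph tumour line of the mouse anterior pituitary, here labelled with the LAF1 strain. The contrast line, 3134, is a mammary adenocarcinoma line derived from transformed C127 cells of an RIII mouse. Both were kept in charcoal-stripped serum, which lacks most steroid, and then received 100 nM dexamethasone. AtT-20 was measured at 0, 2, 4 and 8 h with 2, 2, 2 and 1 arrays, and 3134 at the same times with 2 arrays each. The 0 h arrays are labelled both untreated and vehicle treated, and no later untreated time point was used, so time in culture and hormone cannot be told apart. The labels do not say that replicate arrays came from separate cultures, so the p-values describe only how far these arrays scatter, and that scatter may be technical. Each group is an established line and not normal tissue. In such bulk RNA, fewer cells that make a transcript and less of it per cell cannot be told apart.

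Pomc encodes a precursor protein that is cleaved to adrenocorticotropic hormone, the pituitary signal that makes the adrenal gland release glucocorticoids. Corticotropin-releasing hormone and vasopressin raise its output through their receptors, cyclic AMP and calcium signals and the NR4A factors, while glucocorticoids feed back on the pituitary through the glucocorticoid receptor. In corticotrophs the precursor is cut mainly by proprotein convertase 1, and in melanotrophs also by convertase 2.

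Values are on a log2 scale after quantile normalization, and a gene's level is the median over its probesets. Array signals differ in brightness between probes, so levels are compared between samples for 1 gene and not between genes. A gene was tested where its highest group mean reached 6.59, the 40th percentile of all values. Sample titles carry serial numbers that fall into 2 runs in each line, with replicate 1 in run 1 and replicate 2 in run 2, and the only AtT-20 8 h array is in run 1. Medians of the deposited AtT-20 arrays were 7.51 to 7.86 in run 1 and 6.93 to 7.22 in run 2, and those of the 3134 arrays were 7.83 to 8.14 in run 1 and 6.76 to 7.20 in run 2. Differences are given as treated minus 0 h or as AtT-20 minus 3134, with 95% confidence intervals and limma's Benjamini-Hochberg adjusted p over all tested genes. A difference is called where that p is under 0.05.

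The label of AtT-20 was checked against defining markers. Of 6 listed corticotroph markers 5 had a value, namely Pomc, Tbx19, Crhr1, Neurod1 and Pitx1. All 5 are members of the set, so this check uses the same values as the contrast of the lines below. All 5 reached 6.59 on average in AtT-20, against 0 of 5 in 3134. Their summed level was 50.5 to 52.2 over the AtT-20 arrays, against 25.0 to 27.8 over the 3134 arrays. Of 10 measured markers of other pituitary cell types, Gata2 alone reached 6.59 in AtT-20, with a summed level of 47.1 to 51.0 in AtT-20 and 46.7 to 51.3 in 3134. Of 3 measured melanotroph markers, Pcsk2 alone reached it in AtT-20, and the summed level was 17.4 to 18.9 there and 15.2 to 16.3 in 3134. The label of 3134 went against its markers in part. Of 7 mammary epithelial markers, 2 (Krt8 and Krt18) reached 6.59 in AtT-20 and 1 (Krt14) in 3134, with a summed level of 45.1 to 48.1 in AtT-20 and 37.5 to 40.5 in 3134. Of 6 mesenchymal markers, 1 reached it in AtT-20 and 5 in 3134, with a summed level of 30.8 to 33.3 in AtT-20 and 54.4 to 57.4 in 3134. Genes known to be induced by glucocorticoids were read as a check. In AtT-20 4 of 10 rose and 0 fell in the mean of 2, 4 and 8 h, where 0.202% of all tested genes were called. The 4 were Sgk1 (1.98), Per1 (1.33), Ddit4 (1.14) and Fkbp5 (0.95). In 3134 9 of the 10 rose, where 2.42% of all tested genes were called.

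The dexamethasone question put to AtT-20 is whether the hormone gene and its machinery moved within 8 h. No member passed the test at any time. The count was 0 of 9 at 2 h, where 0.0907% of all tested genes were called, 0 of 9 at 4 h, where 0.171% were called, and 0 of 9 at 8 h, where 0.121% were called. In the mean of the 3 times it was 0 of 9 beside 0.202% of all genes. With the runs as a block, which removes the offset between them, it was still 0 of 9 each time, beside 0.323%, 0.857%, 0.444% and 0.857% of all genes. Shares as low as these leave less than 1 call to be found among 9 genes by background alone, so the counts of 0 say nothing particular about the members. At an unadjusted p under 0.05, 2 of 9 members, Pcsk2 and Nr4a1, stood out in the mean, beside 3.49% of all tested genes. Pcsk2 passed the filter on dim signal only through its treated AtT-20 groups, and such a filter can favour a rise. The intervals of both genes took in 0 when the AtT-20 arrays were fitted alone, a setting chosen after seeing the data. With the run block they left out 0, at 0.33 to 0.96 for Pcsk2 and -0.81 to -0.13 for Nr4a1. Neither gene was called there (adjusted p = 0.0795 and 0.386). The members' median difference was 0.04, beside -0.000918 over all tested genes, and their median absolute difference was 0.116, beside 0.103.

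**Figure D1:**
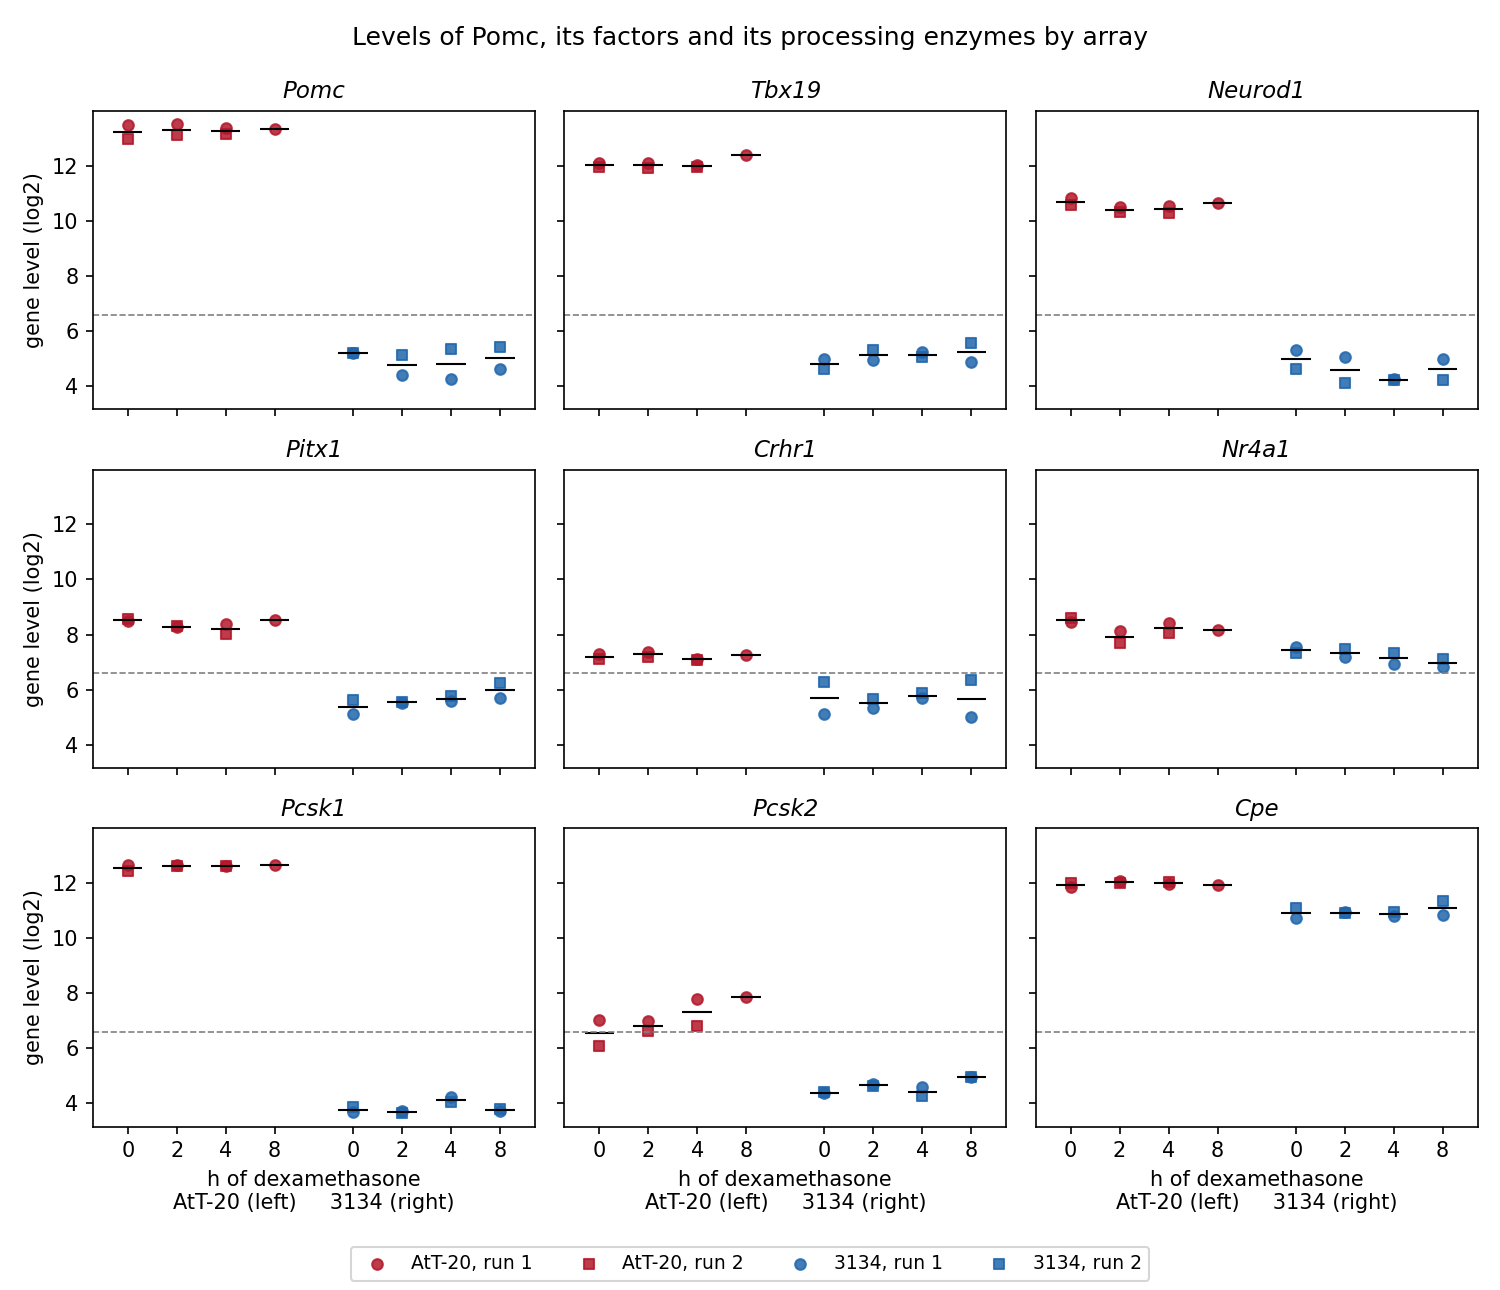
Log2 level of each of the 9 measured members on every array, by hours of dexamethasone on evenly spaced positions, with AtT-20 and 3134 drawn apart and the 2 runs marked. The AtT-20 points lie above the 3134 points for all 9 genes, and the Pomc points of AtT-20 stay between 12.98 and 13.50 at all 4 times.

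Pomc itself was among the brightest signals in AtT-20 and showed no called response. Its gene level was 13.48 and 12.98 at 0 h, 13.50 and 13.12 at 2 h, 13.38 and 13.15 at 4 h, and 13.35 at 8 h, with run 1 before run 2 here and in all such pairs. The treated arrays lay inside the range of the 0 h arrays apart from the run 1 array at 2 h, which stood just above it, and the run 1 arrays were the higher ones at 0, 2 and 4 h. Run 1 stood 0.37 above run 2 on average over those times. Within runs, 3 of the 5 treated arrays were higher than their own 0 h array and 2 were lower, with differences of -0.13 to 0.17.

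The Pomc difference from 0 h was 0.08 at 2 h, 0.04 at 4 h and 0.12 at 8 h. The mean difference was 0.08 with an interval of -0.60 to 0.76, a fold of 1.06 with an interval of 0.659 to 1.70 (adjusted p = 0.999). With the run block it was 0.02, with an interval of -0.36 to 0.39. These intervals also take in the scatter of the 3134 arrays, where Pomc was dim. With the AtT-20 arrays alone the interval was -0.40 to 0.56. A miss of the threshold does not show that the transcript held its level. In 3134 the Pomc level was 4.26 to 5.42 over all 8 arrays, below the level for testing.

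Each Pomc probeset was then read alone. Of the 5, the 4 with identifiers 4305734, 4408458, 4431039 and 4579217 stood at 12.88 to 13.87 in AtT-20. Probeset 4579217 ranked 17 to 26 from the top among all 228090 probesets on every AtT-20 array, where the brightest value after normalization was 14.34. Near that upper end a rise or a fall can be compressed, which was not tested. Its values were 13.83 and 13.85 at 0 h, 13.78 and 13.80 at 2 h, 13.78 and 13.87 at 4 h, and 13.86 at 8 h. Both 2 h arrays lay below both 0 h arrays, the 4 h arrays lay on either side of them, and the 8 h array lay above them, all within a narrow band. The share of all probesets with such a split was not counted, so nothing is read from it. Probeset 4431039 gave 13.61 and 13.68 at 0 h, 13.50 and 13.75 at 2 h, 13.63 and 13.57 at 4 h, and 13.60 at 8 h.

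The offset between runs sat in the other bright probesets. Probeset 4408458 read 13.48 and 12.88 at 0 h, 13.59 and 13.12 at 2 h, 13.38 and 13.15 at 4 h, and 13.35 at 8 h. Probeset 4305734 read 13.38 and 12.98 at 0 h, 13.23 and 13.11 at 2 h, 13.28 and 13.15 at 4 h, and 13.34 at 8 h. In both, run 1 was higher at 0, 2 and 4 h, and these 2 probesets supply the gene's median on most arrays.

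The fifth probeset, 4363818, was dimmer and scattered more, with an AtT-20 median of 6.54, just under the level for testing. It read 6.68 and 6.54 at 0 h, 4.50 and 5.93 at 2 h, 5.17 and 7.41 at 4 h, and 7.06 at 8 h, against 1.57 to 1.89 over the 3134 arrays. Both 2 h arrays lay below both 0 h arrays, while the 4 h arrays lay on either side of them. How many probesets split this way was not counted, so nothing is read from the split of this probeset. Its difference at 2 h was -1.40 with an interval of -2.74 to -0.06 (unadjusted p = 0.0424, adjusted p = 1.00 over all tested probesets). None of the 5 probesets was called at 2, 4 or 8 h, where 0.0142%, 0.0331% and 0.0122% of 147863 tested probesets were. In 3134 probeset 4431039 alone reached the level for testing, at 7.73 to 8.57, while the other 4 stayed at 1.57 to 6.14.

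**Figure D2:**
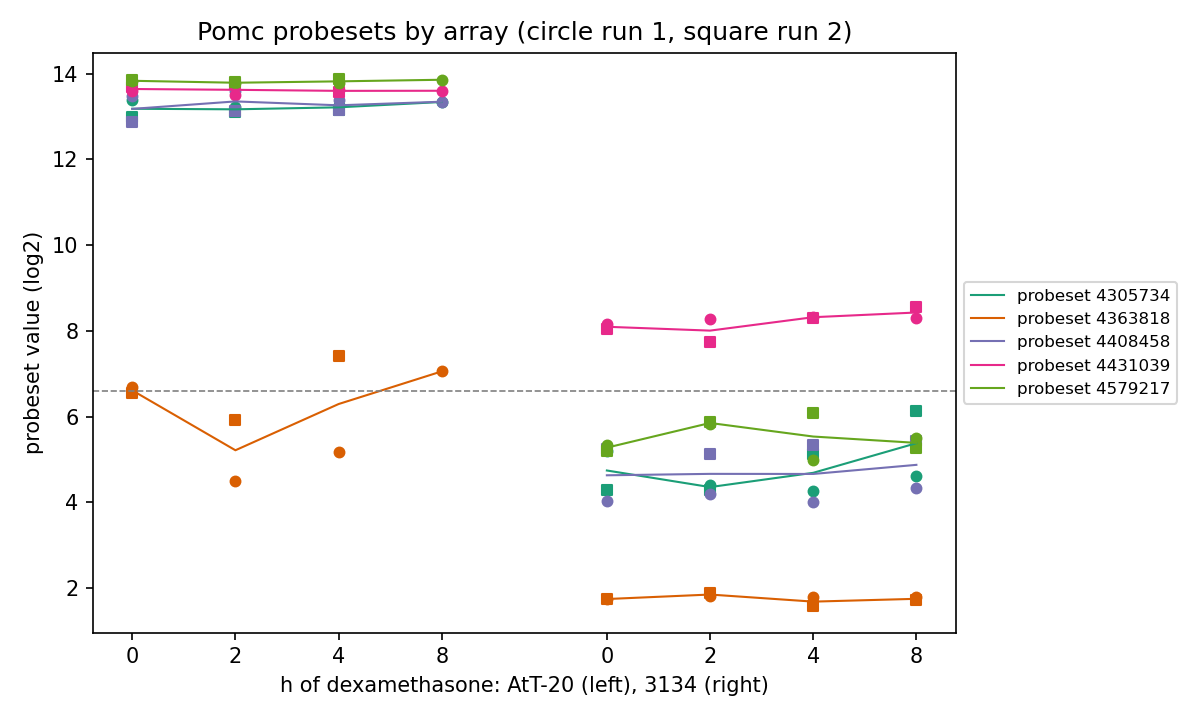
Log2 value of each of the 5 Pomc probesets on every array, by hours of dexamethasone. In AtT-20 4 probesets lie together at 12.88 to 13.87, probeset 4363818 lies at 4.50 to 7.41, and in 3134 only probeset 4431039 lies above 6.59.

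The 250 bases upstream of the Pomc start are shown because the feedback under study is known to act near this start. They come from RefSeq on build GRCm38.p6, at chr12:3954695-3954944 on the plus strand, and 7 of the 10 listed genes had such an entry. Capitals mark the TATA box and a hexamer that nuclear receptors can bind.
Pomc: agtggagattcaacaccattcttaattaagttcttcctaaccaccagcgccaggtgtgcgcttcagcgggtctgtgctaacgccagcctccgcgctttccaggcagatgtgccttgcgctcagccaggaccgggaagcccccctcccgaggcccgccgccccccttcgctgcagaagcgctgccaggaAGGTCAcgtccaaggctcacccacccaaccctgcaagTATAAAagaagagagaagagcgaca
The TATA box letters TATAAA stood at -25 to -20 from the start, and 12.4% of 32851 mouse promoters of the same length held them on 1 strand or the other. The hexamer AGGTCA stood at -62 to -57, in letters that 14.0% of promoters held. There were 2 matches to the E-box CANNTG, the kind of site bound by Neurod1 with a partner, at -200 to -195 and at -147 to -142, in letters that 66.2% of promoters held. Both strands were searched, and the 2 marked motifs do not overlap. A match is a string of letters and not a shown site, and the arrays carry no reading of binding.

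Tbx19, Neurod1 and Pitx1 are transcription factors that act on the Pomc promoter, and none of them was called in AtT-20. Tbx19 (Tpit), the T-box factor of the Pomc lineage, read 12.09 and 11.95 at 0 h, 12.11 and 11.92 at 2 h, 12.03 and 11.97 at 4 h, and 12.38 at 8 h. The single 8 h array was the highest of the 7, and the other 6 overlapped across times. The mean difference was 0.12 with an interval of -0.32 to 0.55 (adjusted p = 0.999).

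Neurod1, the basic helix-loop-helix factor of early corticotrophs, read 10.82 and 10.57 at 0 h, 10.49 and 10.31 at 2 h, 10.54 and 10.28 at 4 h, and 10.63 at 8 h. All 5 treated arrays lay below their own run's 0 h array, by -0.33 to -0.19, and 9.44% of all tested genes likewise had all 5 differences below 0. Across runs the groups overlapped. The mean difference was -0.21 with an interval of -0.82 to 0.40 (adjusted p = 0.999), and -0.25 with an interval of -0.59 to 0.09 with the run block.

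Pitx1, a homeodomain factor of the early pituitary that acts with Tbx19, read 8.50 and 8.57 at 0 h, 8.27 and 8.30 at 2 h, 8.38 and 8.04 at 4 h, and 8.51 at 8 h. The 2 h and 4 h arrays were lower than both 0 h arrays, and the 8 h array was not. The share of all tested genes with the same split was not counted, so nothing is read from it. Its mean difference was -0.20 with an interval of -0.61 to 0.21 (adjusted p = 0.999).

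Crhr1 and Nr4a1 lie on the stimulating side of the pathway. Crhr1, the receptor for corticotropin-releasing hormone, read 7.29 and 7.10 at 0 h, 7.38 and 7.19 at 2 h, 7.12 and 7.09 at 4 h, and 7.26 at 8 h. All 7 arrays lay within a narrow band not far above the level for testing, and treated and 0 h arrays overlapped. The mean difference was 0.02 with an interval of -0.72 to 0.77 (adjusted p = 0.999). With the AtT-20 arrays alone the interval was -0.34 to 0.39.

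Nr4a1 (Nur77), an orphan nuclear receptor induced by cyclic AMP that acts on Pomc and is antagonised by the glucocorticoid receptor, had the lowest response value among the members. It read 8.46 and 8.61 at 0 h, 8.13 and 7.69 at 2 h, 8.42 and 8.04 at 4 h, and 8.15 at 8 h. All 5 treated arrays lay below both 0 h arrays without overlap, which was so for 1 of the 9 members and for 3.38% of all tested genes. The difference was -0.62 at 2 h, -0.30 at 4 h and -0.38 at 8 h. Without 1 of the 4 h arrays the 4 h value was -0.49 or -0.12, and without 1 of the 2 h arrays the 2 h value was -0.85 or -0.40.

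The Nr4a1 mean difference was -0.44 with an interval of -0.85 to -0.03, a fold of 0.738 (unadjusted p = 0.0386, adjusted p = 0.999), and was not called. With the run block it was -0.47 with an interval of -0.81 to -0.13 (adjusted p = 0.386). With the AtT-20 arrays alone the interval was -0.90 to 0.02, which takes in 0. Of its 11 tested probesets 10 had a difference below 0 and 1 above, from -0.72 to 0.05, and none was called. The share of all genes with such a count was not taken, so nothing is read from it. In 3134 Nr4a1 read 7.56 and 7.31 at 0 h, 7.19 and 7.49 at 2 h, 6.95 and 7.31 at 4 h. Its 8 h arrays there read 6.80 and 7.10, the lowest pair in that line. The mean difference there was -0.29 (adjusted p = 0.789), and -0.75 (adjusted p = 0.00657) where a gene's level was the mean over its probesets in place of the median. By that measure 392 of 9919 tested genes were called in the 3134 mean.

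The bases before the Nr4a1 start are shown because this gene is a known target of cyclic AMP signals through CRE sites. They lie at chr15:101266596-101266845 on the plus strand of GRCm38.p6, with capitals on each match to the CRE core letters.
Nr4a1: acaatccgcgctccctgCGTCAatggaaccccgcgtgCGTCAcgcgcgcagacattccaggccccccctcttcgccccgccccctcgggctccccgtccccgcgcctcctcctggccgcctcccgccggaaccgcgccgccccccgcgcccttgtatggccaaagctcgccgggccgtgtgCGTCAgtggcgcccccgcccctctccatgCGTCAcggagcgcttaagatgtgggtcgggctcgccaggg
The core letters TGACG, or CGTCA on the other strand, matched 4 times without overlap, at -233 to -229, -213 to -209, -69 to -65 and -40 to -36. At least 1 match was present in 17.8% of promoters.

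Pcsk1, Pcsk2 and Cpe are the enzymes that turn the precursor into hormones. Pcsk1, proprotein convertase 1, which makes the first cuts in corticotrophs, read 12.66 and 12.45 at 0 h, 12.64 and 12.62 at 2 h, 12.61 and 12.62 at 4 h, and 12.67 at 8 h. The treated arrays lay between 12.61 and 12.67, close to the higher 0 h array. The mean difference was 0.08 with an interval of -0.20 to 0.36 (adjusted p = 0.999), the narrowest interval among the 9 members.

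The bases before the Pcsk1 start, at chr13:75089607-75089856 on the plus strand of GRCm38.p6, are shown because Pcsk1 was the only one of the 7 members with an entry to hold a whole CRE in this window. Capitals mark CRE letters.
Pcsk1: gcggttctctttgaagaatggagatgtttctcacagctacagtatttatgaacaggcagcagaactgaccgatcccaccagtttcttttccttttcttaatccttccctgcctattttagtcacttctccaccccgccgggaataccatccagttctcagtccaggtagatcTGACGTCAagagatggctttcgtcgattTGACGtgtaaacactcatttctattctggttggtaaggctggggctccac
The whole element TGACGTCA stood at -78 to -71, where 2 overlapping matches to the core letters make it up, and 1.55% of promoters held it. Another match to the core letters, TGACG, stood at -50 to -46.

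Pcsk2, convertase 2, which cuts further and is the melanotroph enzyme, had the highest response value among the members and was not called. It read 7.04 and 6.07 at 0 h, 6.97 and 6.62 at 2 h, 7.80 and 6.81 at 4 h, and 7.87 at 8 h. The run 1 arrays at 4 and 8 h were the highest, the run 2 array at 0 h was the lowest, and the treated and 0 h arrays overlapped. Within runs 4 of 5 treated arrays were above their own 0 h array. The differences were -0.06 in run 1 and 0.55 in run 2 at 2 h, 0.76 in run 1 and 0.74 in run 2 at 4 h, and 0.84 in run 1 at 8 h.

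The Pcsk2 difference was 0.24 at 2 h, 0.75 at 4 h and 1.32 at 8 h, and the 8 h value rests on 1 array of the brighter run. These sizes come from fits without the run block and moved with single arrays. Leaving out 1 array there also shifts the balance of the runs. Without the run 2 array at 0 h they were -0.24, 0.27 and 0.84, and without the run 1 array at 0 h they were 0.73, 1.23 and 1.81. Without 1 of its own arrays the 2 h value was 0.07 or 0.42, and the 4 h value 0.25 or 1.25. The mean difference was 0.77 with an interval of 0.15 to 1.39, a fold of 1.71 (unadjusted p = 0.0187, adjusted p = 0.999). With the run block it was 0.64 with an interval of 0.33 to 0.96 (adjusted p = 0.0795). The blocked value was 0.75 at 4 h, with an interval of 0.38 to 1.12 (adjusted p = 0.0737), and 0.94 at 8 h (adjusted p = 0.143). With the AtT-20 arrays alone the interval of the mean difference was -0.06 to 1.60, which takes in 0. The run offset moved with this gene: run 1 stood 0.77 above run 2 over 0, 2 and 4 h, higher than in 97.9% of tested genes. Without the run 2 array at 0 h the mean difference was 0.29, and without the run 1 array at 0 h it was 1.26. Its AtT-20 0 h mean was 6.55, so Pcsk2 passed the filter on dim signal only through the treated AtT-20 groups. Of its 14 probesets 10 were tested, likewise kept by their highest group mean, and such a filter can favour probesets that rose. All 10 had a difference above 0, from 0.49 to 0.93, and none was called. The share of all genes with such a count was not taken, so nothing is read from it.

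Cpe, carboxypeptidase E, which trims basic residues from the cut peptides, read 11.87 and 12.02 at 0 h, 12.09 and 12.00 at 2 h, 11.99 and 12.02 at 4 h, and 11.92 at 8 h. The treated arrays overlapped the 0 h arrays. Its mean difference was 0.04 with an interval of -0.31 to 0.40 (adjusted p = 0.999).

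**Figure D3:**
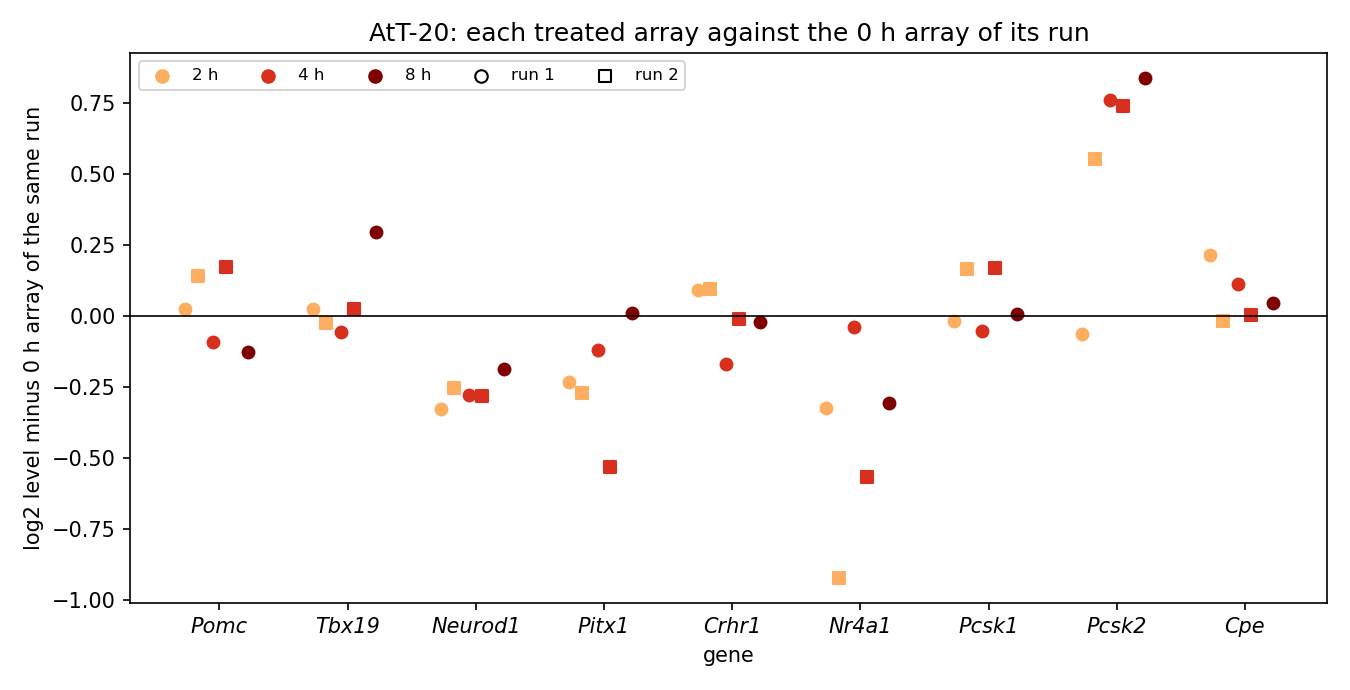
Difference of each treated AtT-20 array from the 0 h array of the same run, in log2 units, for the 9 members, with colour for the time and shape for the run. All 5 points of Nr4a1 and of Neurod1 lie below 0, 4 of 5 points of Pcsk2 lie above it, and the 5 points of Pomc lie between -0.13 and 0.17.

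**Figure D4:**
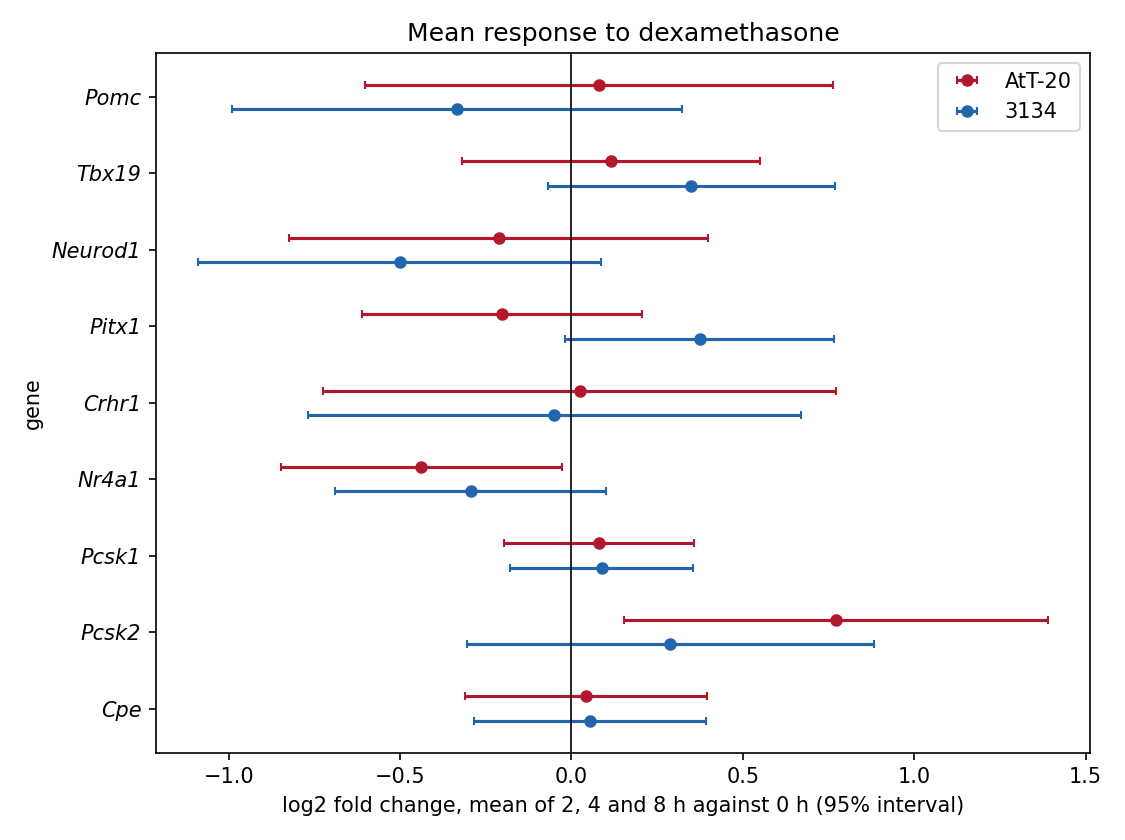
Mean difference of 2, 4 and 8 h from 0 h with its 95% confidence interval, in log2 units, for the 9 members in AtT-20 and in 3134. In AtT-20 the Pcsk2 interval (0.15 to 1.39) and the Nr4a1 interval (-0.85 to -0.03) leave out 0 before adjustment, and no member is called in either line. With the AtT-20 arrays fitted alone, which is not drawn, both intervals take in 0 (-0.06 to 1.60 and -0.90 to 0.02). With the run block, also not drawn, both leave out 0 (0.33 to 0.96 and -0.81 to -0.13), and neither gene is called.

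The contrast between the lines at 0 h asks how far the set belongs to the corticotroph line. All 9 members were higher in AtT-20, where 54.5% of all tested genes differed and 30.3% were higher in AtT-20. Over all times, every AtT-20 array lay above every 3134 array for 9 of 9 members, beside 29.7% of tested genes, and for 71 of the members' 92 probesets, beside 14.8% of probesets with 1 gene. The list was drawn up as corticotroph genes, so its direction here is not independent evidence. For 7 members, all but Nr4a1 and Cpe, every 3134 array was below 6.59, so the size of the difference is limited by background in 3134.

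For the hormone and its main convertase the AtT-20 arrays were bright and the 3134 arrays dim. Pcsk1 read 12.66 and 12.45 in AtT-20 and 3.69 and 3.85 in 3134 at 0 h, a difference of 8.79 ± 0.150 (SE, adjusted p = 6.50e-12). Pomc read 13.48 and 12.98 in AtT-20 and 5.19 and 5.21 in 3134, a difference of 8.03 ± 0.367 (SE, adjusted p = 3.59e-09). In AtT-20 their 0 h means stood 5.97 and 6.64 above the level for testing.

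The lineage factors were likewise dim in 3134 by their gene medians. Tbx19 differed by 7.21, with 12.09 and 11.95 in AtT-20 and 4.99 and 4.62 in 3134. Neurod1 differed by 5.73, with 10.82 and 10.57 in AtT-20 and 5.31 and 4.63 in 3134. Pitx1 differed by 3.18, with 8.50 and 8.57 in AtT-20 and 5.10 and 5.61 in 3134. The groups were apart by far more than the spread between arrays in all 3 (adjusted p = 3.11e-10, 2.41e-08 and 1.23e-07). Of the 6 Pitx1 probesets, 3 were higher on every AtT-20 array than on any 3134 array. Its probeset 4325409 was bright in both lines, with a median of 8.61 in AtT-20 and 8.84 in 3134.

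Pcsk2 and Crhr1 were dim in 3134 as well by gene median, and Nr4a1 was not. Of the 15 Crhr1 probesets, 6 had a median of at least 6.59 in 3134. Likewise 6 of the 15 were higher on every AtT-20 array than on any 3134 array. Pcsk2 differed by 2.16 (adjusted p = 0.000149), with 7.04 and 6.07 in AtT-20 and 4.37 and 4.42 in 3134. Crhr1 differed by 1.49 (adjusted p = 0.00763), with 7.29 and 7.10 in AtT-20 and 5.12 and 6.28 in 3134, and without the lower 3134 array the difference was 0.91 (adjusted p = 0.0963). Nr4a1 differed by 1.10 (adjusted p = 0.00113), with 8.46 and 8.61 in AtT-20 and 7.56 and 7.31 in 3134, a gene whose use is not limited to the pituitary.

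Cpe was the member that 3134 also carried at a high level. It read 11.87 and 12.02 in AtT-20 and 10.74 and 11.10 in 3134, a difference of 1.03 (adjusted p = 0.000618). Of its 11 probesets, 11 had a median of at least 6.59 in AtT-20 and 10 in 3134. On the deposited scale, without quantile normalization, 6 members were called, beside 1957 of 9919 tested genes. Cpe (0.77, adjusted p = 0.585), Crhr1 (1.42, adjusted p = 0.160) and Nr4a1 (0.81, adjusted p = 0.555) were not. With the run block on the same values all 9 were called, beside 5360 of 9919 tested genes. The adjusted p was then 0.00987 for Cpe, 6.16e-07 for Crhr1 and 0.00638 for Nr4a1 at the same differences.

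In 3134 no member was called after dexamethasone at 2, 4 or 8 h, where 1.23%, 1.91% and 2.19% of tested genes were, or in the mean, where 2.42% were. With the run block 2 calls appeared, at 4 and at 8 h, with 0 of 9 at 2 h beside 3% of all genes and 0 of 9 in the mean beside 6.55%. Neurod1 at 4 h differed from 0 h by -0.74 (adjusted p = 0.572, and 0.0341 with the block, where 5.19% of genes were called). Pitx1 at 8 h differed by 0.62 (adjusted p = 0.253, and 0.0368 with the block, where 7.9% were called). Both genes were below 6.59 on all 8 of the 3134 arrays, so these are shifts within dim signal.

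The responses of the lines were also set against each other, as the AtT-20 mean difference minus the 3134 one. None of 9 members was called, where 0.807% of tested genes were. Pomc gave 0.41 with an interval of -0.53 to 1.36 (adjusted p = 0.999), and the 3134 side of it lies in dim signal. The smallest p was that of Pitx1, with -0.58 (unadjusted p = 0.0469, adjusted p = 0.801).

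Probesets of 1 gene can move apart where exon use changes, and this was asked of each member. For the AtT-20 mean difference, 0 of 9 members had probesets that changed unequally (limma's diffSplice with the Simes method, adjusted p = 0.998 for each), beside 0.429% of 11433 genes. That share may be too high, since the test called too many genes on simulated data. Of the members' 92 probesets 84 were tested alone and 0 were called, beside 0.0683% of tested probesets. All 12 Tbx19 probesets had differences above 0, from 0.02 to 0.43, and all 6 Pitx1 probesets below 0, from -0.59 to -0.13. Crhr1 was mixed, with 5 of 12 above and 7 below, and its probesets spread from -0.59 to 0.45. Probesets of a gene share the same arrays, and the share of all genes with such counts was not taken. Nothing is read from these counts.

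**Figure D5:**
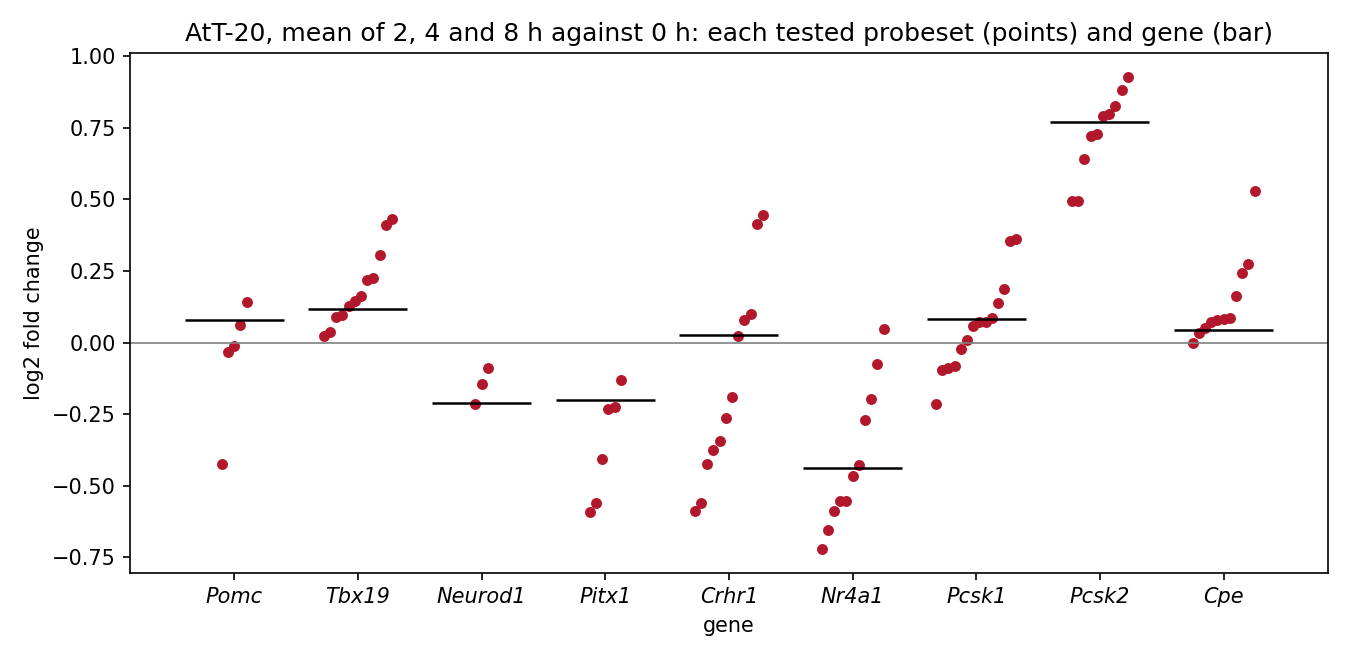
AtT-20 mean difference from 0 h, in log2 units, for each tested probeset of the 9 members, with 1 point per probeset, sorted within a gene, and a bar for the gene's own difference. All 10 Pcsk2 points lie between 0.49 and 0.93, all 6 Pitx1 points lie below 0, and probeset 4363818 gives the lowest Pomc point at -0.42. Probesets of a gene share the same arrays, and the filter on dim signal can favour a rise in Pcsk2. Nothing is read from how many points lie on 1 side.

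The wider pathway was read from lists of receptors and second messengers, transcription factors, and processing and granule genes. Of all tested genes 0.202% were called in the AtT-20 mean and 0.857% with the run block. In the 3134 mean the shares were 2.42% and 6.55%. At the AtT-20 shares, counts of 0 say nothing particular about these lists. In a list of 28 signalling genes 23 were tested, and in the AtT-20 mean 0 rose and 0 fell, with a median difference of -0.04. With the run block 2 rose and 0 fell. Rasd1, a Ras-related protein induced by dexamethasone and first found in AtT-20 cells, stood at 8.19 at 0 h, 10.18 at 2 h, 9.82 at 4 h and 9.53 at 8 h in AtT-20 group means. Its mean difference was 1.66 (adjusted p = 0.0833) and with the block 1.73 (adjusted p = 1.18e-05).

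Rgs2, which shortens G protein signals, stood at 5.89 at 0 h, 7.02 at 2 h, 6.84 at 4 h and 6.82 at 8 h in AtT-20. Its mean difference was 1.00 (adjusted p = 0.232), and with the block it was called (adjusted p = 0.00128). In 3134 Rgs2 rose by 2.41 and was the only signalling gene called in the mean without the block. With it 2 rose and 1 fell, the others being Rasd1 (0.43, adjusted p = 0.0421), which was dim in 3134, and the kinase Prkca (-0.49, adjusted p = 0.0437), named here after its values were seen. Nr4a3, the relative of Nr4a1, differed by -0.34 in AtT-20 (adjusted p = 0.999). It passed the filter on dim signal only through its AtT-20 0 h mean of 6.68. Such a filter can favour a fall, so nothing is read from its direction.

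Of 24 Pomc transcription and pituitary lineage genes 16 were tested, and 0 rose and 0 fell in the AtT-20 mean, with or without the run block, with a median difference of -0.09. Nr3c1, the glucocorticoid receptor, differed by -0.32 (adjusted p = 0.999) in AtT-20. In 3134 Nr3c1 fell by 0.69 (adjusted p = 0.0181) and was the only gene of the list called in the mean without the run block, while with it 1 rose and 2 fell. These were Insm1 (0.49, adjusted p = 0.0410), a neuroendocrine factor named here after its values were seen, Nr3c1, and Ets1 (-0.45, adjusted p = 0.0163). Ets1 (-0.33) and Etv1 (-0.13), members of the ETS family, were not called in AtT-20 either (adjusted p = 0.999 for both).

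Of 22 prohormone processing and secretory granule genes 18 were tested, and 0 rose and 0 fell in the AtT-20 mean, with or without the run block, with a median difference of 0.07. Furin, the convertase found in most cells, differed by 0.37 in AtT-20 (adjusted p = 0.999) and rose by 1.01 in 3134 (adjusted p = 0.0284). In the 3134 mean 2 of the 18 rose and 0 fell, the other being the granin Scg2 (0.74), which was dim in 3134 and is named here after its values were seen. Scg5, the chaperone of convertase 2, differed by 0.22, and Ptprn, a granule membrane protein, by 0.12, both with an adjusted p of 0.999. At 0 h 13 of the 18 were higher in AtT-20 and 1 was lower, with a median difference of 4.26, beside 0.10 over all tested genes, of which 30.3% were higher in AtT-20 and 54.5% differed. The corresponding counts at 0 h were 13 higher and 6 lower among the 23 signalling genes, and 9 higher and 5 lower among the 16 transcription genes.

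Genes whose pattern was most like that of Pomc were found by distance over the 8 group means and by correlation over the 7 AtT-20 arrays. The nearest by distance were Chgb (2.36), Tbx19 (2.47), Tspan13 (2.49), Chga (2.55) and Pcsk1 (2.65), in log2 units. This distance also takes in how bright each gene's probes are, so it matches signal as well as pattern, and nothing is read from which genes it names. The highest correlations were those of Mrpl47 (0.989), Lmx1a (0.987), Uxt (0.986), Qsox2 (0.985) and Rad23b (0.981). They are given as a description with no test, since 396 of 9918 genes had a correlation over 0.9 and the arrays share 2 runs.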

How the data were processed

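RNA was measured on 15 exon arrays. The authors deposited log2 values for each probeset on each array. The submitters' processing notes name RMA and Affymetrix Expression Console without a version. The columns were not on a common level, so the 15 arrays were quantile normalized. Of 228090 probesets, 207232 mapped to 1 gene, 3882 to several and 16976 to none in the platform annotation. Probesets with several genes or none were left out. RefSeq (GRCm38.p6) held 14055 of the 16207 gene symbols as written, gave a present symbol for another 2111 through synonyms, and left 41 unmatched. The highest correlation between 2 arrays was 0.986, and none was taken for a repeat.

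A gene's value was the median over at least 3 probesets. The fit was limma (version 3.58.1, lmFit and eBayes) in R (version 4.3.3), with data.table (version 1.17.8), over the group means of all 15 arrays. It had 7 residual degrees of freedom, or 5 with a run block. The median standard error of a difference from 0 h was 0.215 in log2 units, and 0.264 for AtT-20 at 8 h. The number of arrays limits the precision. Replicate numbers follow the serial runs. Deviations of same-run groups from their group means correlated at 0.491 to 0.591 within a line over 9 pairs and at 0.276 to 0.390 between lines over 12, so the runs were taken as pairs, and the blocked value stands beside results it changes.

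Named genes were all listed members, each Pomc probeset, at most 4 genes per pathway list with the smallest p in the AtT-20 mean, and the 5 genes most like Pomc by each measure. The members and lists were chosen with earlier results of these data known. Scripts were tested on simulated data. The test of unequal probeset change called too many genes there when probesets differed in spread. For the members, then, only an absence of calls is read from it, and its counts over all genes may be too high. Alternatives were the deposited values, median-centred arrays, normalization within lines, the mean over probesets, no filter on dim genes, bright probesets only, the run block, each array left out and, chosen after seeing the data, AtT-20 arrays alone.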

Additional observations from a re-analysis of the deposited data

How the results depend on the processing

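No member was called in AtT-20 in any of 468 values over 15 settings, with a smallest adjusted p of 0.0737 (Pcsk2 at 4 h with the run block). For the 3134 mean, 1 member was called with the mean over probesets (Nr4a1, -0.75, adjusted p = 0.00657), beside 392 of 9919 tested genes. In the other settings it was 0. Between lines at 0 h, 6 to 9 members were called over 11 alternatives, beside 1957 to 6629 of all tested genes. The Pomc mean difference, 0.08, was -0.034 with median-centred arrays, -0.063 with deposited values and the replicate block, -0.054 with the mean over probesets, and -0.17 to 0.33 with 1 array left out, below 0 without the AtT-20 0 h replicate 2. Others near 0 also changed sign. Cpe was -0.048 when centred, -0.033 on deposited values with the block and -0.029 to 0.12 with 1 array left out. Pcsk1 was -0.017 when centred, -0.0081 on deposited values with the block and -0.026 to 0.19 with 1 array left out. Crhr1 was -0.20 with the mean over probesets, -0.074 with bright probesets only and -0.071 to 0.12 with 1 array left out. The cause was not tested.

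Counts over all genes moved more. The AtT-20 counts of called genes were 9 at 2 h, 17 at 4 h, 12 at 8 h and 20 in the mean, against 32, 85, 44 and 85 with the replicate block. The mean gave 1 on deposited values, 48 on deposited values with the block, 35 with the mean over probesets, 6 with AtT-20 arrays alone and 6 without the AtT-20 0 h replicate 2. The 3134 mean gave 240, against 650 with the block, 23 on deposited values, 392 with the mean over probesets, and 109 and 93 without its 0 h replicates. The line contrast gave 5408, against 1957 on deposited values, and the median of all genes moved there to -0.23, against 0.10. In the 3134 mean that median was -0.26 on deposited values. Unequal probeset change was called in 49 genes, against 259 with the block, and both counts may be too high.

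After quantile normalization the block changed the call of no member other than Neurod1 and Pitx1 in 3134. On deposited values it changed those of Cpe, Crhr1 and Nr4a1 between lines at 0 h, with 9 members called, against 6 without it. Of all 9919 tested genes 5360 were called there with the block and 1957 without it. The single AtT-20 8 h array has no spread of its own and is assumed to vary like the other groups, and leaving it out gives no 8 h value and no mean.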
